A study of Mus musculus with 12 samples.

Results

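The ribosome biogenesis genes described here are the 110 genes, of 33625 in the count table of irradiated MODE-K cells, whose pathway annotation holds the KEGG entry for ribosome biogenesis in eukaryotes. All are annotated as known genes. The rule also bars symbols of ribosomal protein genes, but 0 known genes with the entry had such a symbol. MODE-K is a line of mouse small-intestinal epithelial cells. Its cells, with no genetic change named in the labels, were given cobalt-60 gamma rays and their RNA was sequenced in 4 groups of 3 libraries: 48 h after 12 Gy (12Gy_48h), 24 h after 12 Gy (12Gy_24h), 48 h after 4 Gy (4Gy_48h) and unirradiated at 0 h (control). All groups were grown in the same medium. No control was kept for 24 h or 48 h, so in comparisons with control the effects of dose and of time in culture cannot be told apart. Between 12Gy_48h and 12Gy_24h, time after irradiation and time in culture cannot be told apart either. Nothing in the labels says that the 3 libraries of a group came from separate cultures, and p-values then measure only the spread between libraries, part of which may be technical.

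Ribosomes are built in the nucleolus, where RNA polymerase I transcribes a long precursor ribosomal RNA. Small nucleolar particles modify that precursor, a large assembly called the small subunit processome folds and cuts it, and GTPases, AAA ATPases and nucleases bring both subunits to the stage at which exportin carries them to the cytoplasm. The process takes up much of the transcription of a growing cell, and intestinal crypt cells, which divide often, depend on it.

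Of the 110 genes, 76 had at least 100 reads over the 12 libraries and these 76 were tested. A further 11 had 1 to 99 reads and 23 had none. By lists of known roles, 75 of the 110 belonged to 1 of 12 steps of the pathway, and 69 of these were tested. The other 35 were in none of these lists, and 7 of them were tested: Gnl1, Nhlrc2, Rbm28, Tmem120a, Tmem120b, Tmem203 and Vwa8. The entry of Rbm28, K14573, came from a mouse gene, so its absence from the lists does not show that it has no role. For 44 genes, 18 of them tested, the pathway entry had been carried over from a gene of another species. Among the genes with no listed role, 19 carried the entry of nuclear RNA export factors, K14284, and none of those was tested. Silent or nearly silent genes included Fbll1, the paralog of the fibrillarin gene, with 3 reads, Utp14b with 58 reads, Nxf3 with 36 reads, and Rpp25, Nxf2 and Nxf7 with 0 reads.

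Totals ran from 3616416 to 4831641 assigned reads. Control replicate 1 had the deepest library and differed most from its partners, with a chi-square per degree of freedom of 8.8 and 8.05 against the other controls and 3.92 between those. Markers of the labelled cell type were scarce. The 8 epithelial markers summed to 19.1 to 23.5 CPM (a gene’s reads relative to all reads of its library, after TMM scaling) at 12Gy_48h, 27.6 to 29.5 at 12Gy_24h, 16.5 to 23.4 at 4Gy_48h and 12.3 to 17.6 in control. Epcam and Cdh1 had 2 reads each in all, Cldn7 had 0, Krt19 had 9 and Krt8 had 10. Tjp1 had 463 reads, Krt18 353 and Krt7 131. The 7 intestinal lineage markers reached at most 0.784 CPM in sum, with Lgr5, Olfm4, Muc2 and Alpi at 0. The 8 mesenchymal markers summed to 1583 to 2122 CPM at 12Gy_48h, 2779 to 3149 at 12Gy_24h, 1428 to 1892 at 4Gy_48h and 779 to 1276 in control, most of it Vim. All 8 had reads, but Thy1 had only 1 and Col3a1 only 8. Of the 7 immune markers Ptprc, Cd3e and Adgre1 were at 0, and the sum was 38.7 to 45.1 CPM at 12Gy_48h, 21.8 to 38.5 at 12Gy_24h, 15.3 to 22.4 at 4Gy_48h and 23 to 28.7 in control. The 4 endothelial markers summed to at most 1.05 CPM. The part of these shifts in the results was not tested.

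Together the 110 genes took a smaller share of reads at 12Gy_48h than in any other group. Of the reads on known genes they took 0.685% ± 0.0355 at 12Gy_48h, 0.755% ± 0.0258 at 12Gy_24h, 0.785% ± 0.0226 at 4Gy_48h and 0.772% ± 0.0287 in control (SD, n = 3 each). The 3 libraries at 12Gy_48h ran from 0.651 to 0.722% and lay below all 9 others, of which the lowest was a 12Gy_24h library at 0.726%. An exact two-sided permutation test gave p = 0.1 for 12Gy_48h against each other group, the smallest p that 3 against 3 libraries can give. As a share of all assigned reads the order of the groups was different, 0.568%, 0.651%, 0.643% and 0.589% in 12Gy_48h, 12Gy_24h, 4Gy_48h and control. In that measure 12Gy_48h and control overlapped (exact permutation p = 0.4). Known genes took 82.9% of reads at 12Gy_48h, 86.2% at 12Gy_24h, 81.9% at 4Gy_48h and 76.3% in control, and the rest fell on assembled loci with no gene name. In bulk RNA, fewer cells of a kind and less RNA per cell cannot be told apart.

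**Figure D1:**
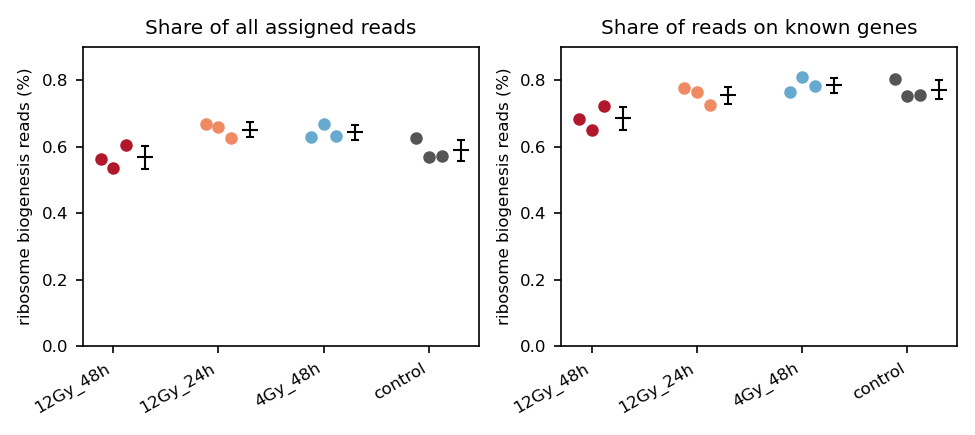
Share of reads on the 110 ribosome biogenesis genes, in percent of all assigned reads (left) and of reads on known genes (right); points are libraries, bars the mean ± SD of 3. On the right, the 3 libraries of 12Gy_48h, at 0.651 to 0.722%, lie below all other libraries.

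The main change in single genes was a fall between 24 h and 48 h after 12 Gy. At 12Gy_48h, 27 of the 76 tested genes were lower and 1 was higher than at 12Gy_24h (edgeR's quasi-likelihood test, Benjamini-Hochberg adjusted p under 0.05 over all 15086 genes tested). Lower genes were 35.5% of the tested members, beside 11.4% of all genes tested and 15.6% of known genes, while higher genes were 20.6% and 9.97% there. The median log2 fold change of the 76 was -0.28, beside -0.06 for known genes. In 26 of the 27 genes the 3 values of each group did not overlap. The calls rest on the same values, and no such share over all called genes is given here, so this adds no support. When known genes were fitted alone, 23 members were lower, all among the 27, beside 12.6% of those genes, and 20 of those kept the call with any single library left out.

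Against 4Gy_48h at the same time, 12 of the 76 genes were lower at 12Gy_48h and 0 were higher, beside 2.49% of all genes lower and 2.19% higher, and 1.55% and 2.79% of known genes. The median of the 76 was -0.20, against 0.05 for known genes. At an unadjusted p under 0.05 edgeR had 26 lower and 1 higher, and DESeq2 called 14 lower and 0 higher at its adjusted p. Here and below, counts at an unadjusted p or from DESeq2 have no share of all genes beside them. They describe the members only. With known genes alone 19 members were lower, the 12 among them, beside 3.22% of those genes. Much of the count rested on single libraries: it was 1 without 12Gy_48h replicate 2, 3 without 12Gy_48h replicate 1, and 5, 5 and 7 without 4Gy_48h replicates 1, 2 and 3. Without control replicate 1, which lends only its spread to this comparison, it was 17. Of the 12, Dkc1 alone kept its call with every library left out in turn. Both comparisons use the same 12Gy_48h libraries. Dkc1, Nhp2, Nop56, Nop58, Pwp2, Ran, Rpp38, Wdr3 and Wdr43 were lower in both.

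Against control the counts depended on scaling. At 12Gy_24h, 22 members were higher and 1 lower than in control, beside 18.5% of all genes higher and 29.4% lower, and 26.5% and 3.99% of known genes. Known genes as a whole had a median log2 fold change of 0.23 in that fit, above the 0.19 of the members. When known genes were fitted alone the median of the members was -0.05, and 2 members (Utp6 and Wdr43) were higher and 3 were lower, beside 9.15% and 7.91% of known genes. At 12Gy_48h, 2 members were higher and 9 lower than in control, beside 12.9% of all genes higher and 20.2% lower, and 18.2% and 3.74% of known genes. With known genes alone, the same 2 were higher and 19 lower, the 9 among them, beside 6.76% and 8.04% of known genes. The count of 9 was 4 without 12Gy_48h replicate 1 and 4 without replicate 2, and Nop10 and Rpp38 were the 2 that kept the call with every library left out. At 4Gy_48h, 4 members were higher and 0 lower than in control, beside 4.53% of all genes higher and 13% lower, and 6.21% and 0.877% of known genes. With edgeR at an unadjusted p under 0.05, 11 were higher and 1 lower, DESeq2 called 3 and 0, and with known genes alone, of which 0.754% were higher and 0.57% lower, no member passed (4 higher and 6 lower at an unadjusted p under 0.05). The 4Gy_48h count was 9 without control replicate 1.

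**Figure D2:**
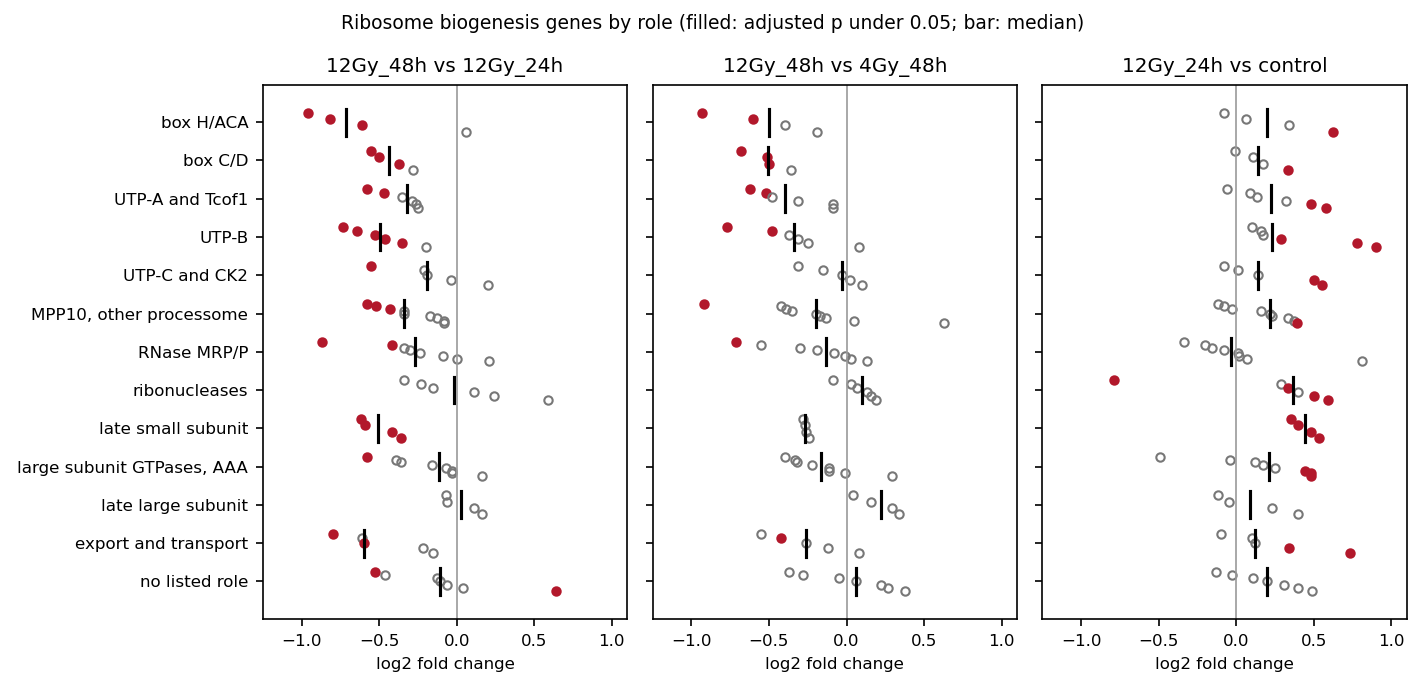
Log2 fold changes of the 76 tested ribosome biogenesis genes by step of the pathway, in 3 comparisons; each point is a gene, filled where edgeR's adjusted p was under 0.05, and bars are medians. In the left panel 27 points to the left of 0 are filled, among them all 4 late small subunit genes, and none of the 4 late large subunit genes is filled.

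Box H/ACA particles turn uridines of ribosomal RNA into pseudouridine. Of the 4 genes for their proteins 3 fell between 24 h and 48 h, where 11.4% of all genes and 15.6% of known genes fell. The falls were 0.96 (Nhp2), 0.82 (Dkc1) and 0.61 (Nop10) on the log2 scale, and Gar1 did not pass. Promoters of the 4 genes are shown because Nhp2 had the lowest log2 fold change of the 76 members in that comparison. The 150 bases before each gene's start in RefSeq (GRCm38.p6) are printed 5′ to 3′ on the gene's strand, with matches to CCAAT or to the ETS-type motif CCGGAAG, on either strand, in capitals. The Dkc1 and Nop10 stretches held neither. The Nhp2 window runs past the start that GENCODE gives the gene (51619735), and its ETS-type match lies beyond that start.
Dkc1 upstream (chrX:75095704-75095853, plus strand): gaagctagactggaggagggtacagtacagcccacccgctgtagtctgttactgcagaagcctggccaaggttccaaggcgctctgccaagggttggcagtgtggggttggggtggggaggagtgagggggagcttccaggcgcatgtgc
Nhp2 upstream (chr11:51619623-51619772, plus strand): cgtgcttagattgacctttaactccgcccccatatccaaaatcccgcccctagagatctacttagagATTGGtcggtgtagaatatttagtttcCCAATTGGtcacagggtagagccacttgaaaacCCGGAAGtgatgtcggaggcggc
Nop10 upstream (chr2:112261776-112261925, plus strand): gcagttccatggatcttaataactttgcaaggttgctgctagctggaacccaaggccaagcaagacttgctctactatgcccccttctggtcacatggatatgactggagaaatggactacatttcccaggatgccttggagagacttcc
Gar1 upstream (chr3:129831397-129831546, minus strand): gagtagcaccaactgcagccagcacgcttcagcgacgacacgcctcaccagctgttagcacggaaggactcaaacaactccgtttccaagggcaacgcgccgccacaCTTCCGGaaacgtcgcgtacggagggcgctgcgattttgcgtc

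Dkc1 encodes dyskerin, the pseudouridine synthase of the particle, and lies on the X chromosome (GRCm38, 75095854 to 75109777, plus strand). Its level was 30.6, 26.2 and 38.2 CPM at 12Gy_48h, 58.9, 49.9 and 59.5 at 12Gy_24h, 59.7, 64.4 and 56.4 at 4Gy_48h, and 50.3, 41 and 41.5 in control. The 3 values at 12Gy_48h were below all 9 others, and the values at 4Gy_48h were above all controls. Dkc1 fell against 12Gy_24h (log2 fold change -0.82, SE 0.15, adjusted p = 0.000723) and against 4Gy_48h (-0.93, SE 0.15, adjusted p = 0.00446). It was the one member whose fall against 4Gy_48h passed with known genes alone and with any library left out. Against control it was lower at 12Gy_48h (-0.49, adjusted p = 0.0212) and higher at 4Gy_48h (0.44, adjusted p = 0.0467), and both of these calls were lost without single libraries. The rise at 4Gy_48h was 0.29 with an adjusted p of 0.321 among known genes alone.

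Nhp2, which binds the RNA of the particle, lies on chromosome 11. It had 220, 208 and 264 CPM at 12Gy_48h, 430, 430 and 487 at 12Gy_24h, 339, 375 and 332 at 4Gy_48h, and 377, 252 and 247 in control. The values at 12Gy_48h lay below those of both other irradiated groups, and control replicate 1 stood far above its partners. Its fall between 24 h and 48 h was the largest of the members (log2 fold change -0.96, SE 0.15, adjusted p = 0.000157). Against 4Gy_48h the difference was -0.60 (adjusted p = 0.0296), and the call was lost without any 1 of 5 of the 6 libraries compared. At 12Gy_24h Nhp2 was higher than in control by 0.62 (adjusted p = 0.002), or 0.39 with an adjusted p of 0.0568 among known genes alone.

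Nop10, the smallest protein of the particle core, lies on chromosome 2. Its values were 192, 184 and 207 CPM at 12Gy_48h, 280, 286 and 321 at 12Gy_24h, 248, 251 and 272 at 4Gy_48h, and 370, 258 and 307 in control. All 3 values at 12Gy_48h were below every other library. It fell against 12Gy_24h by 0.61 on the log2 scale (adjusted p = 0.00149) and was lower than in control (-0.68, adjusted p = 0.000514), a call kept with every library left out. Against 4Gy_48h the value was -0.40 with an adjusted p of 0.0673.

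Gar1, the fourth protein, joins the particle last. It had 149, 135 and 166 CPM at 12Gy_48h, 188, 183 and 60.1 at 12Gy_24h, 136, 205 and 173 at 4Gy_48h, and 178, 83.7 and 153 in control. The groups overlapped in every comparison, and 12Gy_24h replicate 3 lay far below its partners. Its difference between 48 h and 24 h was 0.06 with an SE of 0.32, and it ran from -0.41 to 0.29 as single libraries were left out. Naf1, the factor that holds the place of Gar1 while the particle is assembled, is not in the pathway entry. Its values were 9.68, 7.13 and 7.84 CPM at 12Gy_48h, 45.9, 32.5 and 22.5 at 12Gy_24h, 12.7, 12.6 and 8.09 at 4Gy_48h, and 13.3, 10.8 and 6.97 in control. The 3 values at 12Gy_24h were above all others. Naf1 was higher at 12Gy_24h than in control (log2 fold change 1.69, adjusted p = 5.89e-05) and fell by 2.03 at 12Gy_48h against 12Gy_24h (adjusted p = 5.79e-05).

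**Figure D3:**
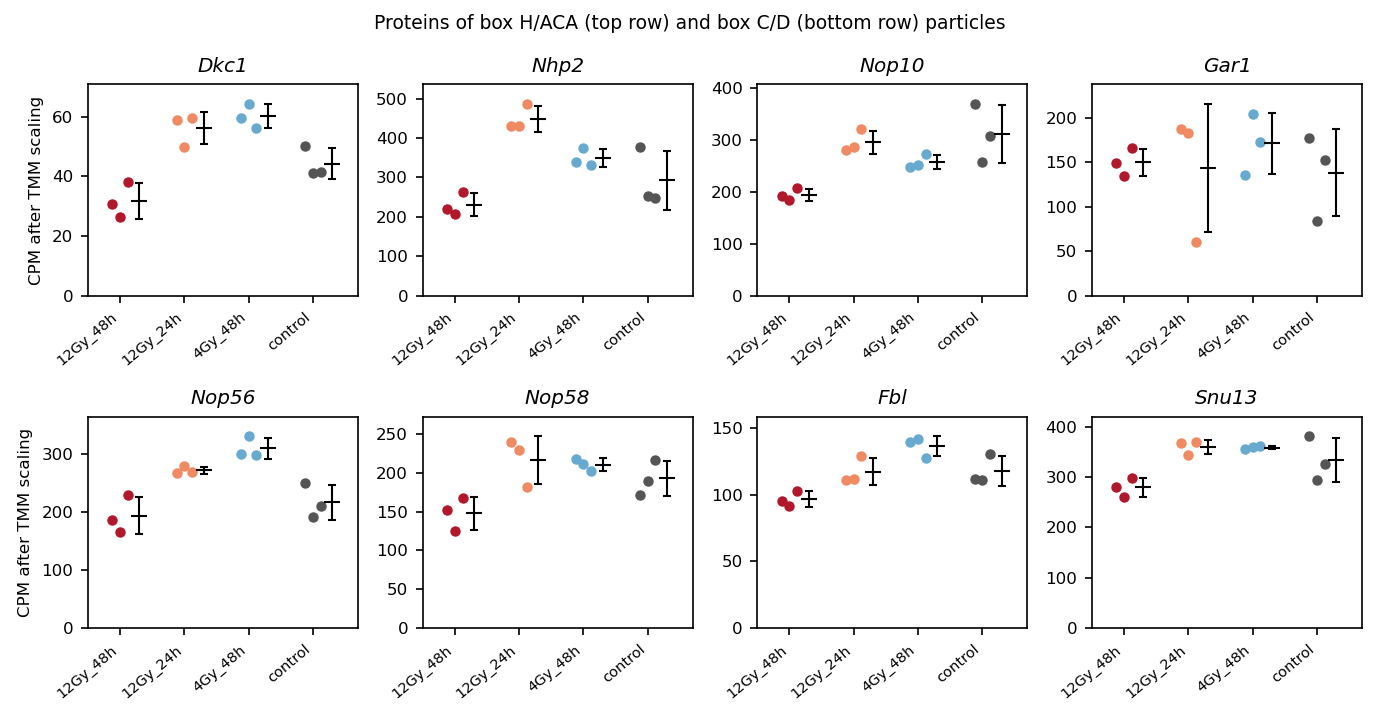
Levels of the box H/ACA genes (top) and box C/D genes (bottom) in CPM after TMM scaling; points are libraries, bars the mean ± SD of 3. Dkc1, Nop10, Nop58 and Fbl have their 3 lowest values at 12Gy_48h, and Gar1 has a single low library at 12Gy_24h.

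Box C/D particles methylate ribosomal RNA on the ribose. Of their 4 tested genes, 3 fell between 24 h and 48 h after 12 Gy and 3 were lower at 12Gy_48h than at 4Gy_48h. In these comparisons 15.6% and 1.55% of known genes were lower. Nop56, a scaffold protein of the particle, had 186, 166 and 229 CPM at 12Gy_48h, 268, 280 and 270 at 12Gy_24h, 300, 332 and 299 at 4Gy_48h, and 250, 191 and 211 in control. Its values at 12Gy_48h were below those at 12Gy_24h and 4Gy_48h and overlapped control. Nop56 fell by 0.50 against 12Gy_24h (adjusted p = 0.0072) and by 0.68 against 4Gy_48h (adjusted p = 0.00894, lost without 12Gy_48h replicate 2). It was higher than in control at 4Gy_48h (0.51, adjusted p = 0.00959) and at 12Gy_24h (0.33, adjusted p = 0.0399), and neither rise passed among known genes alone.

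Nop58, the partner of Nop56, had 152, 125 and 167 CPM at 12Gy_48h, 240, 229 and 182 at 12Gy_24h, 218, 212 and 202 at 4Gy_48h, and 172, 190 and 217 in control. All 3 values at 12Gy_48h were below every other library. Its log2 fold change was -0.55 against 12Gy_24h (adjusted p = 0.00525), -0.51 against 4Gy_48h (adjusted p = 0.0387) and -0.38 against control (adjusted p = 0.0373), and each of the last 2 calls was lost by leaving out any 1 of 6 of the 12 libraries. Fbl encodes fibrillarin, the methyltransferase. It had 95.5, 91.7 and 103 CPM at 12Gy_48h, 111, 112 and 129 at 12Gy_24h, 140, 142 and 128 at 4Gy_48h, and 112, 111 and 131 in control. The 12Gy_48h values were again the lowest of all, but in the fit to all genes Fbl passed only against 4Gy_48h (-0.50, adjusted p = 0.022), and its difference from 12Gy_24h was -0.28 (adjusted p = 0.0709). Snu13, which binds the kink turn of the RNA and also serves in the spliceosome, was 280 ± 19.9 CPM at 12Gy_48h, 360 ± 13.3 at 12Gy_24h, 359 ± 3.37 at 4Gy_48h and 334 ± 44.3 in control (SD, n = 3 each). It fell against 12Gy_24h (-0.37, adjusted p = 0.0141).

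The UTP-A complex loads first onto the precursor RNA, and Tcof1 encodes treacle, a cofactor of RNA polymerase I. Of the 6 genes of this list, 2 fell between 24 h and 48 h after 12 Gy, beside 15.6% of known genes. All 6 had negative values. Wdr43, of UTP-A, had 67.2, 61.6 and 68.5 CPM at 12Gy_48h, 105, 92 and 98 at 12Gy_24h, 97.6, 96.2 and 89.6 at 4Gy_48h, and 71.6, 63.3 and 61.9 in control. The values at 12Gy_24h and 4Gy_48h were above all others, and those at 12Gy_48h overlapped control. Wdr43 was higher than in control at 12Gy_24h (0.58, adjusted p = 0.000446) and at 4Gy_48h (0.53, adjusted p = 0.00438), and fell at 12Gy_48h against 12Gy_24h (-0.58, adjusted p = 0.00122) and 4Gy_48h (-0.52, adjusted p = 0.0181). Among known genes alone the rise at 12Gy_24h was 0.35 (adjusted p = 0.0314) and that at 4Gy_48h was 0.38 (adjusted p = 0.0882).

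Tcof1 had 37.9, 46.6 and 47.6 CPM at 12Gy_48h, 57.3, 55.4 and 55.1 at 12Gy_24h, 66.2, 70.8 and 66.6 at 4Gy_48h, and 56.1, 56.1 and 45.5 in control. The 4Gy_48h values were the highest of all 12 libraries, and the gene fell at 12Gy_48h against 4Gy_48h (-0.62, adjusted p = 0.0144). Utp4, another UTP-A gene, was higher at 12Gy_24h than in control (0.48, adjusted p = 0.00674) and fell by 0.47 at 12Gy_48h against 12Gy_24h (adjusted p = 0.0154). Heatr1, the largest UTP-A protein, was 21.9 ± 1.98 CPM at 12Gy_48h, 26.1 ± 2.87 at 12Gy_24h, 30.6 ± 2.9 at 4Gy_48h and 23.8 ± 1.07 in control, and did not pass in any comparison of the fit to all genes. Its difference of -0.48 from 4Gy_48h passed among known genes alone (-0.52, adjusted p = 0.0371).

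UTP-B, made of WD-repeat proteins and Utp6, joins the processome next. Of its 6 genes 5 fell between 24 h and 48 h after 12 Gy, beside 15.6% of known genes. The median log2 fold change of the 6 was -0.49, and Tbl3 was -0.20 without passing. With known genes alone, 3 of the 6 passed, beside 12.6% of those genes lower. Pwp2 had 8.37, 9.42 and 9.67 CPM at 12Gy_48h, 14.9, 15.2 and 15.8 at 12Gy_24h, 15.6, 17.8 and 13.5 at 4Gy_48h, and 14.6, 15.9 and 12.1 in control. The 12Gy_48h values were the 3 lowest. Pwp2 fell against 12Gy_24h (-0.73, adjusted p = 0.0062), against 4Gy_48h (-0.77, adjusted p = 0.0247) and against control (-0.63, adjusted p = 0.0135). The call against control was lost without 12Gy_48h replicate 1 or control replicate 2.

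Utp6 followed another order. Its values were 26.4, 26.5 and 29.5 CPM at 12Gy_48h, 39.8, 37.2 and 42 at 12Gy_24h, 35.3, 36 and 30.8 at 4Gy_48h, and 21.7, 24.8 and 22.8 in control. Every irradiated library was above every control. Utp6 was higher than in control at 12Gy_24h (0.78, adjusted p = 0.000114, and 0.54 with adjusted p = 0.00691 among known genes alone) and at 4Gy_48h (0.56, adjusted p = 0.00754), and it fell at 12Gy_48h against 12Gy_24h (-0.53, adjusted p = 0.00572). Wdr36 and Wdr3 fell against 12Gy_24h by 0.46 (adjusted p = 0.00627) and 0.35 (adjusted p = 0.0411). Utp18 had values of 31.3, 33.9 and 16.3 CPM at 12Gy_24h against 12.9, 12.8 and 18.2 in control, so its rise of 0.90 (adjusted p = 0.00413) came with overlapping groups.

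UTP-C and casein kinase 2 make up a smaller branch with 5 genes. Beside 15.6% of known genes, 1 of the 5 fell between 24 h and 48 h. This was Csnk2a1, a catalytic subunit of casein kinase 2. It had 62.5, 58.8 and 63.8 CPM at 12Gy_48h, 83.3, 84.9 and 103 at 12Gy_24h, 68.5, 66.6 and 70.7 at 4Gy_48h, and 58, 60.4 and 73.7 in control. Its 12Gy_24h values were above all others. Csnk2a1 was higher at 12Gy_24h than in control (0.50, adjusted p = 0.00373) and fell by 0.55 at 12Gy_48h against 12Gy_24h (adjusted p = 0.004). Csnk2b, the regulatory subunit, was 101 ± 5.07 CPM at 12Gy_48h, 104 ± 8.4 at 12Gy_24h, 100 ± 8.73 at 4Gy_48h and 94.2 ± 9.99 in control, with no call.

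Among 9 tested genes of the MPP10 complex and the rest of the processome, 3 fell between 24 h and 48 h after 12 Gy: Imp4, a protein of the MPP10 complex (-0.58, adjusted p = 0.00129), Emg1, a methyltransferase of small subunit RNA (-0.52, adjusted p = 0.00201), and Rcl1 (-0.43, adjusted p = 0.0279). All 9 values were negative, and 15.6% of known genes were lower in that comparison. Imp4 had 40.8, 42.3 and 42.1 CPM at 12Gy_48h, 60.8, 62 and 64.8 at 12Gy_24h, 55.8, 52.6 and 55.8 at 4Gy_48h, and 56.3, 51 and 60.3 in control. Its 12Gy_48h values stood below all other libraries, and it was lower than in control (-0.42, adjusted p = 0.0104). Nat10, which acetylates small subunit RNA, had 17.3, 15.5 and 13.1 CPM at 12Gy_48h, 20.4, 19.6 and 18.1 at 12Gy_24h, 25.7, 37 and 24.3 at 4Gy_48h, and 21.9, 22.3 and 18.8 in control. The 4Gy_48h values were the highest and the 12Gy_48h values the lowest. Nat10 fell against 4Gy_48h (-0.92, adjusted p = 0.0106, lost without 12Gy_48h replicate 2). Fcf1, of the same list, was 118 ± 7.14 CPM at 12Gy_48h, 125 ± 5.7 at 12Gy_24h, 129 ± 3.18 at 4Gy_48h and 132 ± 9.01 in control, with no call in the fit to all genes. Exons of Emg1 overlap those of Lpcat3 on the other strand by 334 bases, and how the counting treated strand is not given in the sources used here.

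RNase MRP cuts the precursor between the parts for the small and the large subunit, and shares most of its proteins with RNase P, which trims transfer RNA. Of 8 tested genes, 3 were lower at 12Gy_48h than in control and 2 fell between 24 h and 48 h. Of known genes, 3.74% and 15.6% were lower in these comparisons, and of all genes 20.2% and 11.4%. Rpp38 had 9.16, 10.2 and 8.1 CPM at 12Gy_48h, 17, 16.5 and 16.9 at 12Gy_24h, 15.1, 13.3 and 16.7 at 4Gy_48h, and 20.4, 15.4 and 22 in control. All 12Gy_48h values were below every other library. Its fall against control was the largest of the members (-1.07, SE 0.18, adjusted p = 0.000346), and it was also lower than at 12Gy_24h (-0.87, adjusted p = 0.00223) and 4Gy_48h (-0.71, adjusted p = 0.0403). Left-out libraries did not end the calls against control and 12Gy_24h, and 8 of them ended the call against 4Gy_48h. Rpp30 and Rpp40 were lower at 12Gy_48h than in control as well (-0.41, adjusted p = 0.0135, and -0.50, adjusted p = 0.0217), and Rpp30 fell against 12Gy_24h (-0.42, adjusted p = 0.0124). Pop7 was 35.6 ± 5.96 CPM at 12Gy_48h, 35.6 ± 2.6 at 12Gy_24h, 40.6 ± 4.15 at 4Gy_48h and 35.1 ± 3.88 in control, with no call.

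The ribonucleases and exonucleases of the entry trim spacers and also act on other RNAs. Of 6 genes, 0 passed between 48 h and 24 h with edgeR (1 higher and 1 lower at an unadjusted p under 0.05, and 2 lower with DESeq2), and 3 were higher and 1 lower at 12Gy_24h than in control. Of known genes, 26.5% were higher and 3.99% lower at 12Gy_24h than in control. Xrn2, which degrades RNA from the 5′ end, had 86.3, 69.8 and 99.1 CPM at 12Gy_48h, 95.5, 109 and 118 at 12Gy_24h, 103, 85.9 and 82 at 4Gy_48h, and 73.3, 69.7 and 71.5 in control. At 12Gy_24h it was above all controls (0.59, adjusted p = 0.00219, and 0.35 with adjusted p = 0.079 among known genes alone). Drosha, better known for cutting microRNA precursors, and Rexo2, an oligoribonuclease, were higher at 12Gy_24h by 0.50 (adjusted p = 0.0201) and 0.33 (adjusted p = 0.0328). Rexo5 was the one member lower at 12Gy_24h than in control (-0.79, adjusted p = 0.0208), with 5.04, 5.51 and 4.96 CPM against 7.74, 12 and 7.23. The call for Rexo5 was lost without control replicate 2 or any 12Gy_24h library.

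Late maturation of the small subunit takes place around and after export. Its 4 genes were all higher at 12Gy_24h than in control and all lower at 12Gy_48h than at 12Gy_24h, and the 2 comparisons share the 12Gy_24h libraries. Of known genes, 26.5% were higher in the first and 15.6% lower in the second. Nob1 encodes the nuclease that makes the final cut of small subunit RNA. It had 40.3, 37.7 and 34.8 CPM at 12Gy_48h, 58.4, 61.2 and 54 at 12Gy_24h, 46.2, 48.6 and 41 at 4Gy_48h, and 47.1, 33 and 39.7 in control. The 12Gy_24h values were above all others. Nob1 was higher at 12Gy_24h than in control (0.53, adjusted p = 0.00469) and fell by 0.62 at 12Gy_48h against 12Gy_24h (adjusted p = 0.00349). The kinases Riok1 and Riok2 fell by 0.42 (adjusted p = 0.0248) and 0.36 (adjusted p = 0.0418), and Ak6, an ATPase, by 0.59 (adjusted p = 0.00189). Their rises at 12Gy_24h were 0.35, 0.40 and 0.48, and none of the 4 rises passed among known genes alone. Ak6 shares 1564 exon bases with Taf9 on the same strand, so its reads are uncertain.

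GTPases and AAA ATPases drive steps of large subunit assembly. Of 8 tested members of this kind, 1 fell between 24 h and 48 h, beside 15.6% of known genes. This was Gtpbp4, a nucleolar GTPase (-0.58, adjusted p = 0.00299). It had 86.6, 75.9 and 91.2 CPM at 12Gy_48h, 122, 132 and 124 at 12Gy_24h, 115, 105 and 115 at 4Gy_48h, and 76.1, 105 and 98.6 in control. Gnl2, the GTPase that checks the large subunit before export, had 57.3, 70.8 and 68.2 CPM at 12Gy_48h, 61.8, 51 and 63.3 at 12Gy_24h, 58.2, 53.5 and 48.6 at 4Gy_48h, and 36.5, 44.3 and 46.1 in control. Every irradiated library was above every control for Gnl2, whereas 44 of the 76 members had a negative value at 12Gy_48h against control. It was higher than in control at 12Gy_48h (0.63, adjusted p = 0.0027) and at 12Gy_24h (0.48, adjusted p = 0.0105), and the first of these passed among known genes alone (0.44, adjusted p = 0.0349) and with every library left out. Gnl3, or nucleostemin, was 95 ± 7.04 CPM at 12Gy_48h, 106 ± 8.96 at 12Gy_24h, 119 ± 8.43 at 4Gy_48h and 109 ± 8.58 in control, with no call in the fit to all genes.

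Late large subunit genes Eif6, Sbds, Efl1 and Nmd3 gave 0 calls in any of the 5 comparisons of the fit to all genes, and DESeq2 called none of them. At an unadjusted p under 0.05, edgeR had 1 of the 4 higher at 12Gy_24h than in control and 0 in the other comparisons. Eif6, which keeps the unfinished large subunit from joining the small one, was 269 ± 23.9 CPM at 12Gy_48h, 249 ± 2.45 at 12Gy_24h, 262 ± 20.9 at 4Gy_48h and 258 ± 10.5 in control. Sbds, which helps to remove that factor, was 209 ± 10.6, 187 ± 5.37, 188 ± 14.7 and 204 ± 37.1 CPM in the same order of groups. Their medians were 0.03 for 12Gy_48h against 12Gy_24h and 0.22 against 4Gy_48h, where the 76 members had -0.28 and -0.20. Among known genes alone Eif6 was lower at 12Gy_24h than in control (-0.29, adjusted p = 0.0463).

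Both subunits leave the nucleus with exportin 1, encoded by Xpo1, and the GTPase Ran. Of 5 tested export genes, these 2 fell between 24 h and 48 h, beside 15.6% of known genes. Upstream bases of Xpo1, Xrn2 and Wdr43 are printed because these genes, with Nhp2, had the smallest adjusted p among the named rises at 12Gy_24h for which RefSeq gave a sequence, with the same motifs in capitals. The window of Wdr43 lies inside the span that GENCODE gives the gene, since RefSeq places its start further along. The Xrn2 window also runs slightly past the GENCODE start of its gene (147012996).
Wdr43 upstream (chr17:71616065-71616214, plus strand): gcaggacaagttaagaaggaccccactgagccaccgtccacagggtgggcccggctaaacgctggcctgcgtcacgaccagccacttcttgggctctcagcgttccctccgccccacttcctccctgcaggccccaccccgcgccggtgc
Xrn2 upstream (chr2:147012849-147012998, plus strand): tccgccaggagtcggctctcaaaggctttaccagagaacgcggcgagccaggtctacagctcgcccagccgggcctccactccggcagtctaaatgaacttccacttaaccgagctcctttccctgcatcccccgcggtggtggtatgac
Xpo1 upstream (chr11:23255891-23256040, plus strand): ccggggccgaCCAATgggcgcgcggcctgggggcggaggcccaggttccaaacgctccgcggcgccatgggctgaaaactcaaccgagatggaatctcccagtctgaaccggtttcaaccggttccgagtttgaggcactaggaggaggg

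Xpo1 had 23.3, 22.4 and 27.7 CPM at 12Gy_48h, 45.6, 38.3 and 44 at 12Gy_24h, 21.3, 30.6 and 17.5 at 4Gy_48h, and 21.9, 25.9 and 29.7 in control. The 12Gy_24h libraries stood alone, and the other groups overlapped each other. Xpo1 was higher at 12Gy_24h than in control (0.73, adjusted p = 0.00317, and 0.49 with adjusted p = 0.06 among known genes alone) and fell by 0.80 at 12Gy_48h against 12Gy_24h (adjusted p = 0.00363). Ran had 816, 736 and 934 CPM at 12Gy_48h, 1270, 1255 and 1239 at 12Gy_24h, 1109, 1121 and 1087 at 4Gy_48h, and 1211, 860 and 911 in control. Its 12Gy_48h values lay below both other irradiated groups and overlapped control, where replicate 1 was high. Ran fell against 12Gy_24h (-0.60, adjusted p = 0.00107) and, with an adjusted p of 0.0491, against 4Gy_48h (-0.42). Nxt2, a cofactor of RNA export, was lower at 12Gy_48h than in control (-0.71, adjusted p = 0.0213) with 7.06, 5.6 and 10.5 CPM against 10.5, 13.6 and 13.9. Nxf1, the main messenger RNA export receptor, had no call, at 80.3 ± 2.25 CPM at 12Gy_48h and 81.9 ± 11.2 in control.

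Among the 7 tested genes with no listed role, Gnl1 rose and Tmem120a fell. Gnl1 encodes a GTPase whose pathway entry, K14539, came from a gene of another species. It had 34.8, 37.9 and 31.9 CPM at 12Gy_48h, 23.4, 21.8 and 22.2 at 12Gy_24h, 26.5, 26.7 and 27.5 at 4Gy_48h, and 26.9, 21.5 and 19.8 in control. The 3 values at 12Gy_48h were above all other libraries. Gnl1 was the one member higher at 12Gy_48h than at 12Gy_24h (0.64, adjusted p = 0.00322) and was also higher than in control (0.61, adjusted p = 0.00345), and both calls held among known genes alone and with every library left out. Its exons overlap those of Prr3 on the other strand by 386 bases. Tmem120a, a membrane protein gene whose entry also came from another species, fell by 0.53 between 24 h and 48 h (adjusted p = 0.0156). With these 7 genes left out, 26 of 69 members were lower and 0 higher at 12Gy_48h than at 12Gy_24h, beside 15.6% and 9.97% of known genes.

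**Figure D4:**
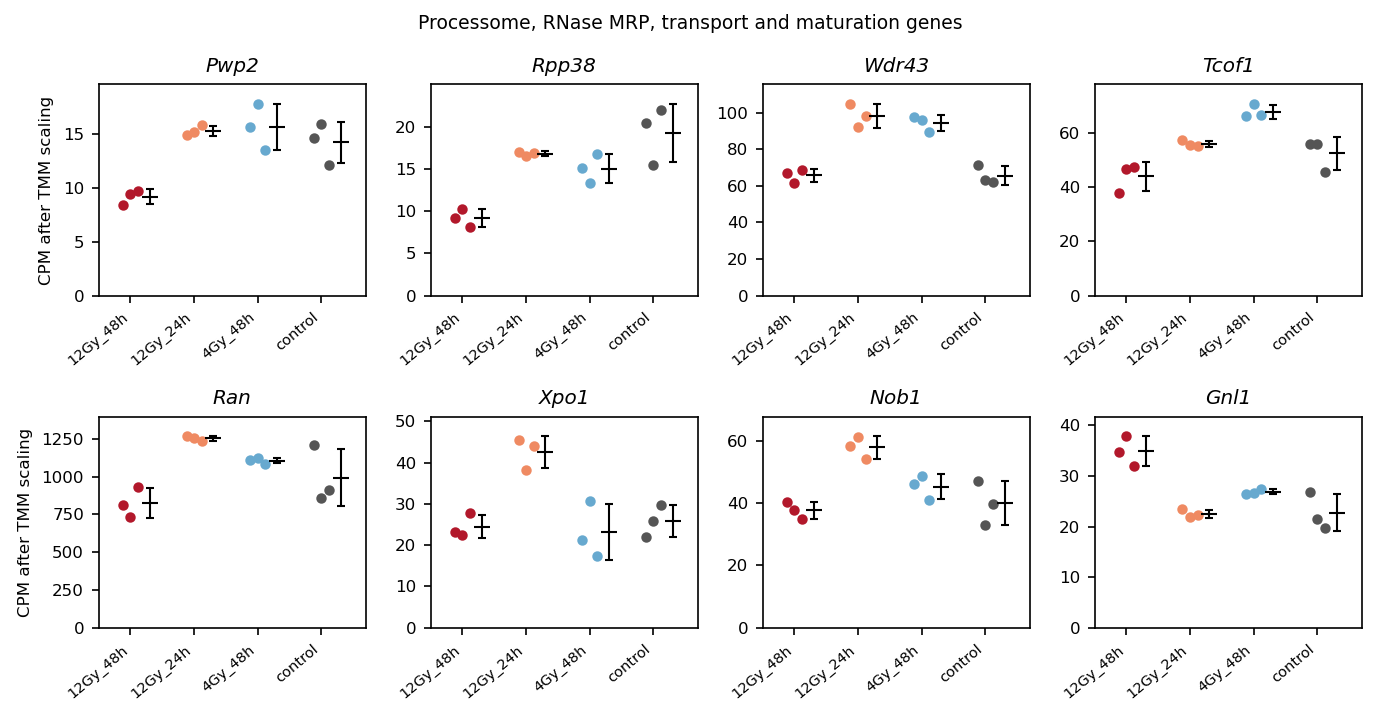
Levels of 8 members from other steps in CPM after TMM scaling; points are libraries, bars the mean ± SD of 3. Pwp2 and Rpp38 are lowest at 12Gy_48h, Xpo1 and Nob1 are highest at 12Gy_24h, Tcof1 is highest at 4Gy_48h, and Gnl1 is highest at 12Gy_48h.

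Over the 76 tested members, the group with the lowest mean was 12Gy_48h for 39, control for 25, 12Gy_24h for 7 and 4Gy_48h for 5. The highest mean was at 12Gy_24h for 42, at 4Gy_48h for 19, in control for 9 and at 12Gy_48h for 6. With scaling to known genes, 12Gy_48h was lowest for 46 members, and control was highest for 30 and 12Gy_24h for 27. For the members, the position of 12Gy_48h at the bottom therefore held under both scalings, and that of control did not. No such counts over all tested genes are given here, so these do not show that the members differ from other genes.

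Other genes of the pathway, from lists outside the KEGG entry, moved in the same comparison. Of 42 further large subunit assembly factors, 19 (45.2%) fell and 3 rose between 24 h and 48 h after 12 Gy, with a median of -0.34, beside 15.6% of known genes lower and 9.97% higher. Npm1, nucleophosmin, had 1393, 1273 and 1361 CPM at 12Gy_48h against 2132, 2185 and 2156 at 12Gy_24h, and fell by 0.68 (adjusted p = 2.21e-05). Wdr12, of the PeBoW complex, fell by 0.88 (adjusted p = 0.000128), and Nip7 by 0.74 (adjusted p = 0.000305). Ddx24, a helicase of this list, was higher at 12Gy_48h than at 12Gy_24h (0.60, adjusted p = 0.00125). Of 34 further small subunit factors, 8 (23.5%) fell and 0 rose, with Ddx21, a nucleolar helicase, at -0.92 (adjusted p = 0.000106), Esf1 at -1.07 (adjusted p = 0.000509) and Dhx15 at -0.74 (adjusted p = 0.00141). Ncl, nucleolin, fell by 0.40 (adjusted p = 0.00478). Of 15 genes that the role lists held but the pathway column did not, 4 (26.7%) fell and 1 rose, the riser being Isg20, an interferon-induced exonuclease (1.48, adjusted p = 0.000165).

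Of 20 genes of the RNA polymerase I machinery, 3 (15%) fell between 24 h and 48 h, a share near the 15.6% of known genes that were lower: Polr1d (-0.58, adjusted p = 0.00109), Twistnb (-0.73, adjusted p = 0.00154) and Cd3eap (-0.64, adjusted p = 0.0209). Their median was -0.15. Against control, Taf1d, of the promoter factor SL1, was higher in all 3 irradiated groups (0.39 at 12Gy_48h, 0.59 at 12Gy_24h and 0.56 at 4Gy_48h), and Polr2k, a subunit shared by all 3 polymerases, was lower in all 3 (-0.61, -0.46 and -0.56). Among known genes alone Taf1d passed only at 12Gy_24h (0.36, adjusted p = 0.024), and Polr2k in all 3. These share the control libraries. Genes with symbols starting Rpl, Rps, Mrpl or Mrps, which the member rule bars, were also measured. They were taken by symbol alone, so genes that do not encode ribosomal proteins may be among them. Of 96 tested genes with Rpl or Rps symbols, 52 (54.2%) were lower and 4 higher at 12Gy_48h than at 12Gy_24h. Of 77 with Mrpl or Mrps symbols, 27 (35.1%) were lower and 0 higher, beside 11.4% of all genes and 15.6% of known genes lower. Their medians were -0.27 and -0.28.

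Myc encodes a transcription factor known to activate many ribosome biogenesis genes, and Mxd1 and Mxd4 encode repressors that compete with it for the partner Max. Myc had 54.2, 51.4 and 50.2 CPM at 12Gy_48h, 92.1, 87.3 and 87.5 at 12Gy_24h, 73.7, 58.5 and 60.2 at 4Gy_48h, and 70.5, 53 and 56.5 in control. The 12Gy_24h libraries were above all others. Myc was higher at 12Gy_24h than in control (0.57, adjusted p = 0.00202, and 0.33 with adjusted p = 0.0777 among known genes alone) and fell by 0.78 at 12Gy_48h against 12Gy_24h (adjusted p = 0.000452). Mxd1 had 14.1, 13.8 and 12.8 CPM at 12Gy_48h, 7.17, 5.51 and 4.67 at 12Gy_24h, 5.45, 7.9 and 3.51 at 4Gy_48h, and 5.16, 8.45 and 6.97 in control. Mxd4 had 20.1, 21.9 and 16.5 CPM at 12Gy_48h, 7.96, 6.89 and 9.33 at 12Gy_24h, 12.2, 11.6 and 13.5 at 4Gy_48h, and 7.95, 10.2 and 6.97 in control. Both were highest in the 3 libraries of 12Gy_48h. They rose against 12Gy_24h by 1.22 (Mxd1, adjusted p = 0.00263) and 1.27 (Mxd4, adjusted p = 0.000203). Of the 8 tested genes of this list, 2 rose and 1 fell in that comparison. Beside them, 20.6% of all genes were higher and 11.4% lower, and 9.97% and 15.6% of known genes. Whether these genes act on the members was not tested.

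**Figure D5:**
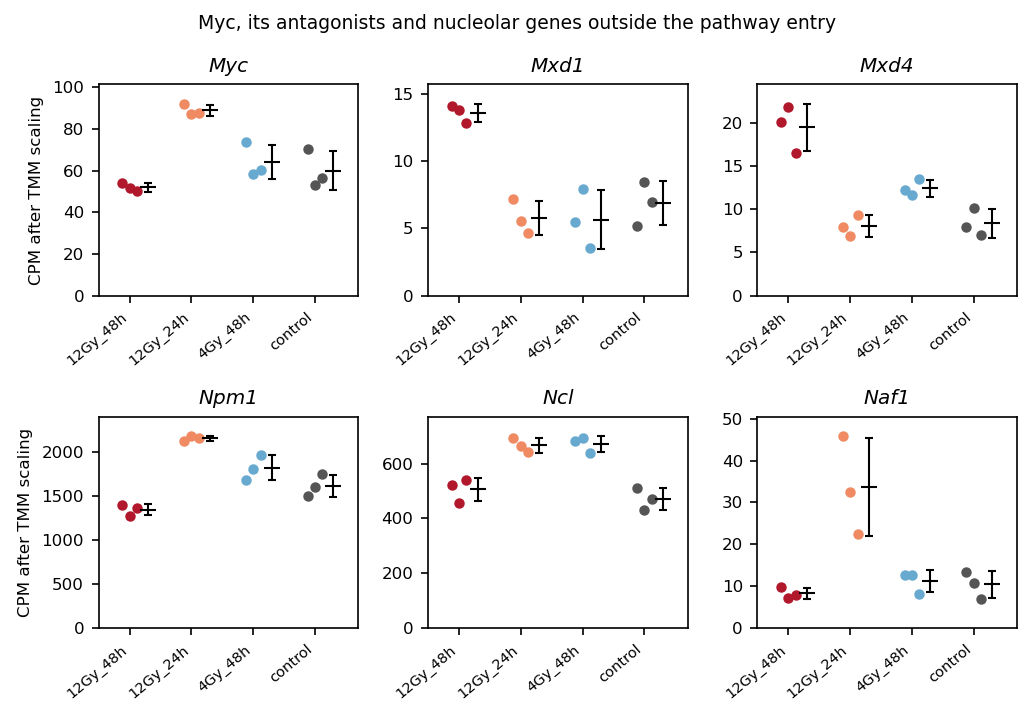
Levels of Myc, of the competing repressors Mxd1 and Mxd4, and of 3 nucleolar genes outside the pathway entry in CPM after TMM scaling; points are libraries, bars the mean ± SD of 3. Myc, Npm1 and Naf1 are highest at 12Gy_24h, and Mxd1 and Mxd4 are highest at 12Gy_48h.

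Upstream sequence was at hand for 63 of the 76 tested members, and for 27025 mouse genes in all, of which 7840 were tested known genes. Within 150 bases before the start, on either strand, the E-box CACGTG, which Myc can bind, stood in 4 members (6.35%), beside 4.3% of all promoters and 6.61% of those of tested known genes. The ETS-type motif CCGGAAG stood in 16 members (25.4%), beside 5.68% of all and 13.5% of tested known genes. CCAAT stood in 15 members (23.8%), beside 25.3% and 29.7%. The NRF1 motif and the YY1 motif AAGATGGC stood in 1 member each (1.59%), beside 0.655% and 0.881% of all promoters and 1.62% and 1.49% of those of tested known genes. Of the 25 members that fell between 24 h and 48 h and had a sequence, 8 (32%) held CCAAT and 7 (28%) the ETS-type motif. The E-box stood in 3 (12%), the YY1 motif in 1 and the NRF1 motif in 0. A match describes letters in a window and not binding.

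The annotated length of the RNAs counted was not the same in all groups. Weighted by reads, the longest transcript of each known gene averaged 2348.4 ± 1.85 nt at 12Gy_48h, 2272.8 ± 4.18 at 12Gy_24h, 2279.2 ± 24.7 at 4Gy_48h and 2240.3 ± 53.1 in control (SD, n = 3 each), with 12Gy_48h above every other library. Split at their median length of 3223 nt, 15 of the 38 shorter members and 12 of the 38 longer ones fell between 24 h and 48 h after 12 Gy. Their medians were -0.29 and -0.27, beside -0.11 and -0.00 for known genes of the same lengths, of which 20.5% and 11.4% were lower.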

How the data were processed

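RNA was measured in 12 MODE-K libraries, 4 groups of 3, grouped by the labels. The deposited counts are whole reads assigned to each gene in each library, with no normalization. Its CPM columns, also made by the authors, equal each count divided by the total of its column to within 4.78e-06; the CPM printed here were computed anew after TMM scaling. Reads were trimmed with cutadapt 1.9 and checked with FastQC, per the submitters' processing notes. For the aligner, annotation, genome build and strand setting, no name is given in the sources used here. Assembled loci have names starting with ONT, and the sequencing platform was not settled from those sources. Symbols were restored by Ensembl identifier, for 22022 of 22036 known genes. Gene positions come from the GENCODE annotation of GRCm38 and upstream sequences from RefSeq GRCm38.p6.

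The test was the two-sided quasi-likelihood test of edgeR 4.0.16 (R 4.3.3), with its default expression filter, TMM scaling and 1 mean per group in a fit to all 12 libraries, for 5 comparisons. The threshold was an adjusted p (Benjamini-Hochberg, over 15086 genes) under 0.05; the biological coefficient of variation was 0.144. Because assembled loci without names fell against control, the fit was repeated on 9816 known genes alone. Further alternatives were a replicate block, DESeq2 1.42.0, RLE scaling, no expression filter, a filter at a group mean of 5 CPM, and leaving out each library. The test was tried on simulated data for 12Gy_24h against control with 15086 genes, 200 of them changed. It recovered 5.5% of 1.5-fold, 60% of 2-fold and 94% of 4-fold changes, with 0, 5 and 11 false calls. In the data 2798 genes were higher and 4440 lower in that comparison, so these rates need not hold there.

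Genes to be named were, in each comparison, up to 8 rises and 8 falls past the threshold whose groups did not overlap, with a mean of at least 1 CPM in the higher group, then the 2 most abundant members of each role, 10 members fixed by name (Fbl, Nop56, Nop58, Dkc1, Heatr1, Tcof1, Nob1, Eif6, Sbds, Xpo1), and up to 3 called genes of each other list. Not all genes given by the last part are printed. Ddx51, left out above, had means of 24.6 CPM at 12Gy_48h, 15.5 at 12Gy_24h, 26.7 at 4Gy_48h and 48.9 in control. Utp4, Utp18, Riok2, Rcl1, Tbl3, Efl1 and Nmd3 are named outside the rule. Silent genes, genes with no listed role, Ddx24, Gar1 and the box H/ACA sequences were chosen after their values were seen. The members, lists and rules were all chosen with earlier results of these data known, so none of the counts is independent support for them.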

Additional observations from a re-analysis of the deposited data

Results flagged for a closer look

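For 28 members the level after 12 Gy differed between 48 h and 24 h by a test of that difference itself (edgeR's quasi-likelihood test, adjusted p under 0.05 over all genes). Of all genes 11.4% were lower and 20.6% higher at 48 h, and of known genes 15.6% and 9.97%. No unirradiated cells were kept for these times, so time after irradiation and time in culture cannot be told apart. The log2 fold change of 12Gy_48h over 12Gy_24h was -0.96 for Nhp2, -0.87 for Rpp38, -0.82 for Dkc1, -0.80 for Xpo1, -0.73 for Pwp2, -0.64 for Utp18, -0.62 for Nob1, -0.61 for Nop10, -0.60 for Ran, -0.59 for Ak6, -0.58 for Gtpbp4, Imp4 and Wdr43, -0.55 for Nop58 and Csnk2a1, -0.53 for Utp6 and Tmem120a, -0.52 for Emg1, -0.50 for Nop56, -0.47 for Utp4, -0.46 for Wdr36, -0.43 for Rcl1, -0.42 for Rpp30 and Riok1, -0.37 for Snu13, -0.36 for Riok2, -0.35 for Wdr3, and 0.64 for Gnl1.

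For 12 members the level at 48 h differed between 12 Gy and 4 Gy by the same kind of test, beside 2.49% of all genes lower and 2.19% higher. The count was 1 without 12Gy_48h replicate 2, and Dkc1 alone kept its call with every library left out in turn. The log2 fold change of 12Gy_48h over 4Gy_48h was -0.93 for Dkc1, -0.92 for Nat10, -0.77 for Pwp2, -0.71 for Rpp38, -0.68 for Nop56, -0.62 for Tcof1, -0.60 for Nhp2, -0.52 for Wdr43, -0.51 for Nop58, -0.50 for Fbl, -0.48 for Wdr3 and -0.42 for Ran.

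Of 7 assembled loci without a gene name that carry the pathway entry, 1 had enough reads to test. This locus, ONT.9807, with the entry of Nop56, had 24 reads at 12Gy_48h, 35 at 12Gy_24h, 49 at 4Gy_48h and 29 in control, summed over 3 libraries each. Its rise at 4Gy_48h against control did not pass (edgeR log2 fold change 0.84, adjusted p = 0.195).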

How the results depend on the processing

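No member changed sign under an alternative where it was called in either fit, but uncalled members did, most often with known genes alone: 22 of 76 at 12Gy_24h, 18 at 12Gy_48h and 21 at 4Gy_48h against control. The members' median against control was then -0.05 at 12Gy_24h in place of 0.19, -0.27 at 12Gy_48h in place of -0.08 and -0.01 at 4Gy_48h in place of 0.14. Counts of members called kept within 1.5 times the values reported, except as follows. With known genes alone, 2 members were higher and 3 lower at 12Gy_24h than in control, 19 were lower at 12Gy_48h than in control, 0 were higher at 4Gy_48h than in control, and 19 were lower at 12Gy_48h than at 4Gy_48h. With no filter on low counts, 0 were lower at 12Gy_24h and 3 at 12Gy_48h than in control, and 7 were higher at 4Gy_48h. With DESeq2, 0 were lower at 12Gy_24h than in control. With only members of a listed role, 1 was higher at 12Gy_48h than in control and 0 than at 12Gy_24h. Leaving out the members with no listed role, the replicate block with known genes alone and the split by length were chosen after seeing the data. The cause of these shifts was not tested.

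With single libraries left out, counts ranged as follows: 20 to 28 higher and 0 to 2 lower at 12Gy_24h than in control, 2 to 3 higher and 4 to 10 lower at 12Gy_48h than in control, 3 to 9 higher and 0 to 1 lower at 4Gy_48h than in control, 1 higher and 21 to 31 lower at 12Gy_48h than at 12Gy_24h, and 0 to 1 higher and 1 to 17 lower at 12Gy_48h than at 4Gy_48h.

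Replicate numbers recur in all groups, but same-numbered libraries did not deviate together: 1 of 18 such pairs had a correlation over 0.1, with a median of -0.009. With the replicate block, 19 members were higher at 12Gy_24h than in control, 8 were lower at 12Gy_48h than in control, 3 were higher at 4Gy_48h, and 25 and 8 were lower at 12Gy_48h than at 12Gy_24h and 4Gy_48h. The replicate block with known genes alone gave 2 higher and 2 lower at 12Gy_24h and 18 lower at 12Gy_48h than in control, and 0 higher at 4Gy_48h. Shares of all genes with the replicate block are not given here, so these counts describe the members only.

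Genes without a call may still have changed. The simulated recovery of 1.5-fold changes cannot be carried over to these data, where far more genes were called. Smaller changes did pass edgeR's test among the members, such as that of Wdr36 (log2 fold change 0.29, adjusted p = 0.0406, at 12Gy_24h against control). That call was lost without 12Gy_24h replicate 1, and the value was 0.06 (adjusted p = 0.758) among known genes alone.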
